A study of Mus musculus with 5 samples.

Results

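The genes described here are the mouse selenoproteins, which carry the amino acid selenocysteine, and the factors that make and insert it. They were taken by name from the table of read counts and number 30 of its 55573 genes, 24 encoding selenoproteins and 6 encoding selenocysteine machinery. RNA-seq was done on N2A (Neuro-2A) cells, which come from a mouse neuroblastoma. They received 60 pmol of siRNA, directed at Upf1 in 3 libraries (siUpf1, replicates 1 to 3) and a commercial negative control in the other 2 (siCtl, replicates 1 and 3), and were otherwise grown alike. The labels do not say that replicates came from separate cultures, so p-values measure the spread between these libraries, which may be technical. The study used this comparison to find mRNAs that rose on Upf1 knockdown. It took as decay targets only those also enriched in immunoprecipitates of phosphorylated UPF1.

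Selenocysteine is encoded by UGA, which elsewhere is a stop codon. A hairpin in the 3′ untranslated region (3′ UTR), the SECIS element, recruits the binding protein SECISBP2 and the elongation factor EEFSEC, which deliver a dedicated tRNA to the in-frame UGA. UPF1 is an RNA helicase required for nonsense-mediated mRNA decay (NMD), which removes mRNAs whose translation stops well upstream of the last exon-exon junction. A UGA read as a stop can therefore make a selenoprotein mRNA a substrate of NMD, and Gpx1 mRNA is a textbook case when selenium is short. The selenium content of the medium is not given in the sources used here.

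The UGA codons of the selenoprotein genes that changed on Upf1 knockdown are shown first. Their position relative to the last junction is a feature by which NMD could act on them. Each line gives 12 nt of mRNA on either side of the first selenocysteine codon, in the sense of the mRNA and, for Txnrd1 and Txnrd3, running past the stop codon, with the UGA written as TGA in capitals. Positions are those of the codon itself in GRCm38, with the reading frame and the transcript from the GENCODE M21 annotation. In 7 of these genes the codon lay more than 50 nt upstream of the last junction, the usual limit for NMD.
Selenof (chr3:144590645-144590647, plus strand): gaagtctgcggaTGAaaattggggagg
Selenom (chr11:3516273-3516275, plus strand): acctgtggaggaTGAcagttgaatcgc
Selenow (chr7:15920464-15920466, minus strand): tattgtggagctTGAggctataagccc
Selenon (chr4:134542338-134542340, minus strand): gaccagtcctgcTGAggttccgggcgg
Selenot (chr3:58585238-58585240, plus strand): atttgtgtatccTGAgggtaccggcgg
Gpx1 (chr9:108339451-108339453, plus strand): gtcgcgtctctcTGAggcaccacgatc
Gpx4 (chr10:80054737-80054739, plus strand): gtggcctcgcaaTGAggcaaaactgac
In the other 5 the codon lay less than 50 nt upstream of the last junction (Msrb1) or in the last exon.
Msrb1 (chr17:24740158-24740160, plus strand): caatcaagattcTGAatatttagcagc
Dio2 (chr12:90729823-90729825, minus strand): ggttcagccaccTGAccacctttcact
Txnrd1 (chr10:82896037-82896039, plus strand): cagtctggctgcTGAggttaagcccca
Txnrd3 (chr6:89674789-89674791, plus strand): cagaaaggctgcTGAggctagccctgc
Selenoi (chr5:30266964-30266966, plus strand): ccaaactcagatTGActaggaatggaa

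The knockdown was checked on Upf1 itself. Upf1 had 5217.1 and 5242.7 normalised read counts in the siCtl libraries and 2403.1, 2496.3 and 2448.7 in the siUpf1 libraries, which is 46.8% of the siCtl mean (DESeq2 log2 fold change -1.10, SE 0.051, adjusted p = 7.09e-101). The libraries held from 20402205 to 27717594 assigned reads. No replicate pair was alike within sampling noise (chi-square per degree of freedom 5.65 or more), so each library was counted separately. Of 15 markers of sympathetic neuroblastoma and neurons, 12 reached a mean normalised count of 10, and Nefl, Nefm and Dcx did not. Their sum was 38554 to 38832 in siCtl and 44189 to 47034 in siUpf1, with 8 markers higher and 1 lower, and the part this had in the results below was not tested. Of 13 markers of glia, immune, endothelial, fibroblast and epithelial cells and hepatocytes, 7 were under that level, and the list summed to 748 to 796 in siCtl and 718 to 739 in siUpf1. In RNA from bulk cells, a change in RNA per cell cannot be told apart from a change in the mixture of cells.

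Selenoprotein mRNAs changed in both directions on Upf1 knockdown. Selenof rose more than 3-fold, Selenom, Msrb1, Selenow and Selenon rose by smaller amounts, and Dio2 rose from a level of a few reads. Selenoi, Selenot and Txnrd3 fell to between 70.7% and 73.7% of siCtl, and Gpx1, Gpx4 and Txnrd1 fell to between 90.5% and 93.1%. Of the 24 selenoprotein genes, 2 had no read, 2 had too few reads to be tested and 20 were tested, of which 6 were called higher, 6 lower and 8 neither, at a DESeq2 adjusted p under 0.05. Over all 15191 genes tested, 22.0% were called higher and 22.9% lower, against 30% and 30% of these 20. Most of the 20 were well expressed. When the mean normalised count was required to reach 200, 28.8% of all genes were called higher and 30.8% lower, against 29.4% and 35.3% of the 17 selenoprotein genes of that level. The counts were thus near the background of genes of like expression. The median log2 fold change of the 20 was 0.08, beside -0.00 over all genes tested. In 15 of the 20 (75%) the siCtl and siUpf1 libraries did not overlap, beside 69.4% of all genes tested.

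**Figure D1:**
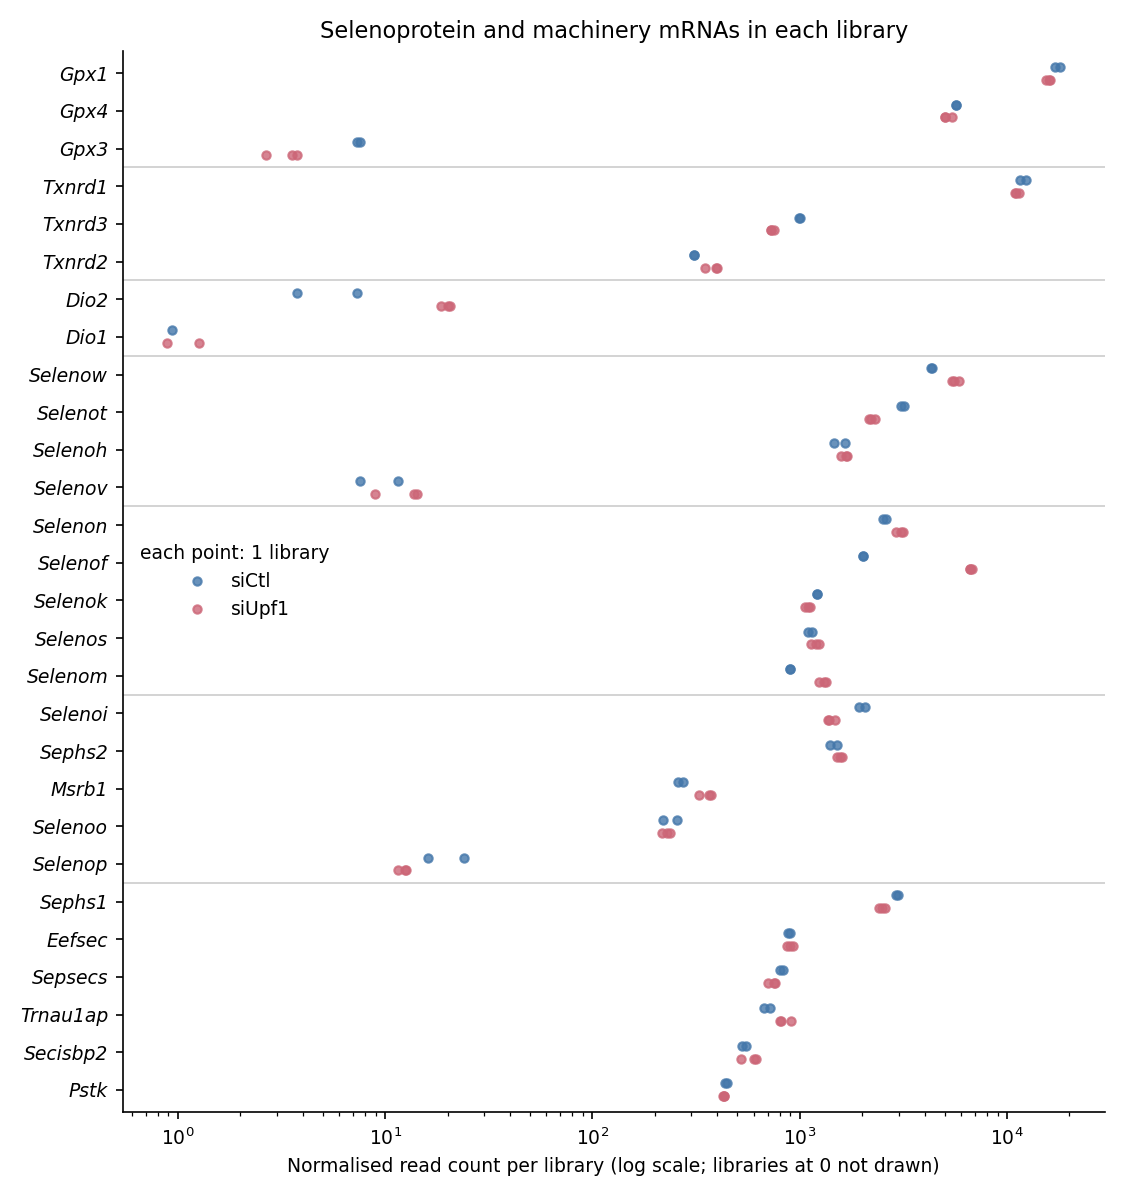
Normalised read count of each member with a read, on a log axis, with 1 point for each siCtl library (blue) and each siUpf1 library (red) and grey lines between roles. Selenof stands apart with siUpf1 libraries at 6637.4 to 6789.4 against 2013.3 and 2026.2 in siCtl, while most other pairs of groups lie close together.

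The glutathione peroxidases reduce hydrogen peroxide and lipid peroxides with glutathione. Gpx1, the cytosolic enzyme, was the most abundant member per length, at 481 RPKM in siCtl (reads scaled to exon length and library size) and 442 in siUpf1. Its normalised counts were 16966.8 and 18032.8 in siCtl and 15493.7, 15908.0 and 16101.5 in siUpf1. The groups did not overlap, and the log2 fold change was -0.14 (SE 0.042, adjusted p = 0.00168). This call was lost without siCtl replicate 3, at an adjusted p of 0.158.

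Gpx4, which reduces phospholipid hydroperoxides and protects cells from ferroptosis, had 5668.9 and 5676.6 normalised counts in siCtl and 5007.1, 5433.2 and 5014.2 in siUpf1. The groups did not overlap, with siUpf1 replicate 2 nearest to siCtl, and the log2 fold change was -0.14 (SE 0.051, adjusted p = 0.0144). The call was lost when any library other than siUpf1 replicate 2 was left out, at adjusted p from 0.0677 to 0.124. Gpx3, the secreted plasma enzyme, had 7 and 8 reads in siCtl and 4, 3 and 3 in siUpf1, too few for the test. Gpx2, known from the gut, had no read in any library, which at a limit of 3 counts allows up to 0.108 to 0.147 CPM (counts scaled to library size), for counting error only.

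The thioredoxin reductases keep thioredoxin reduced, and each carries its selenocysteine next to the end of the protein, at residue 498 of 499 in Txnrd1, 526 of 527 in Txnrd2 and 614 of 615 in Txnrd3. Txnrd3, a thioredoxin-glutathione reductase best known from testis, had 1005.3 and 990.6 normalised counts in siCtl and 730.2, 754.3 and 722.9 in siUpf1. The groups lay far apart relative to their spread, and Txnrd3 fell to 73.7% (log2 fold change -0.44, SE 0.085, adjusted p = 1.32e-06). Txnrd1, the cytosolic enzyme, had 12369.2 and 11557.1 in siCtl and 10972.1, 11054.7 and 11384.2 in siUpf1. The highest siUpf1 library was just below the lower siCtl library, and the log2 fold change was -0.10 (SE 0.044, adjusted p = 0.043). Of all calls on members, this was the one most often lost, in 9 of 13 alternative settings, edgeR among them (adjusted p = 0.0586).

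Txnrd2, the mitochondrial enzyme, was not called. It had 310.3 and 309.4 normalised counts in siCtl and 397.5, 394.1 and 350.3 in siUpf1, and all siUpf1 libraries were above both siCtl libraries. The log2 fold change was 0.30 (SE 0.131, 95% interval 0.04 to 0.55, DESeq2 adjusted p = 0.0532), and edgeR gave an adjusted p of 0.00797. Of the 3 reductases, Txnrd2 was thus the one whose siUpf1 libraries lay above siCtl.

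The deiodinases activate or inactivate thyroid hormone. Dio2, which makes the active hormone T3, was at the edge of detection, with 7 and 4 reads in siCtl and 21, 16 and 23 in siUpf1. The normalised counts were 7.34 and 3.77 in siCtl and 18.68, 20.08 and 20.50 in siUpf1, with no overlap. The log2 fold change was 1.84 with a wide error (SE 0.69, 95% interval 0.48 to 3.20, adjusted p = 0.0201). It was 2.38 without siCtl replicate 1, 1.43 without siCtl replicate 3, 1.88 without siUpf1 replicate 1 and 1.81 without siUpf1 replicate 3. None of these fits left enough reads for an adjusted p, nor did the fit with a replicate block. The log2 fold change was 1.83 without siUpf1 replicate 2, where the call was lost (adjusted p = 0.0671). Shrinkage of fold changes reduced it to 0.49. Dio1 had at most 1 read in a library, and Dio3, which inactivates the hormone, had none, with the same limit as Gpx2.

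**Figure D2:**
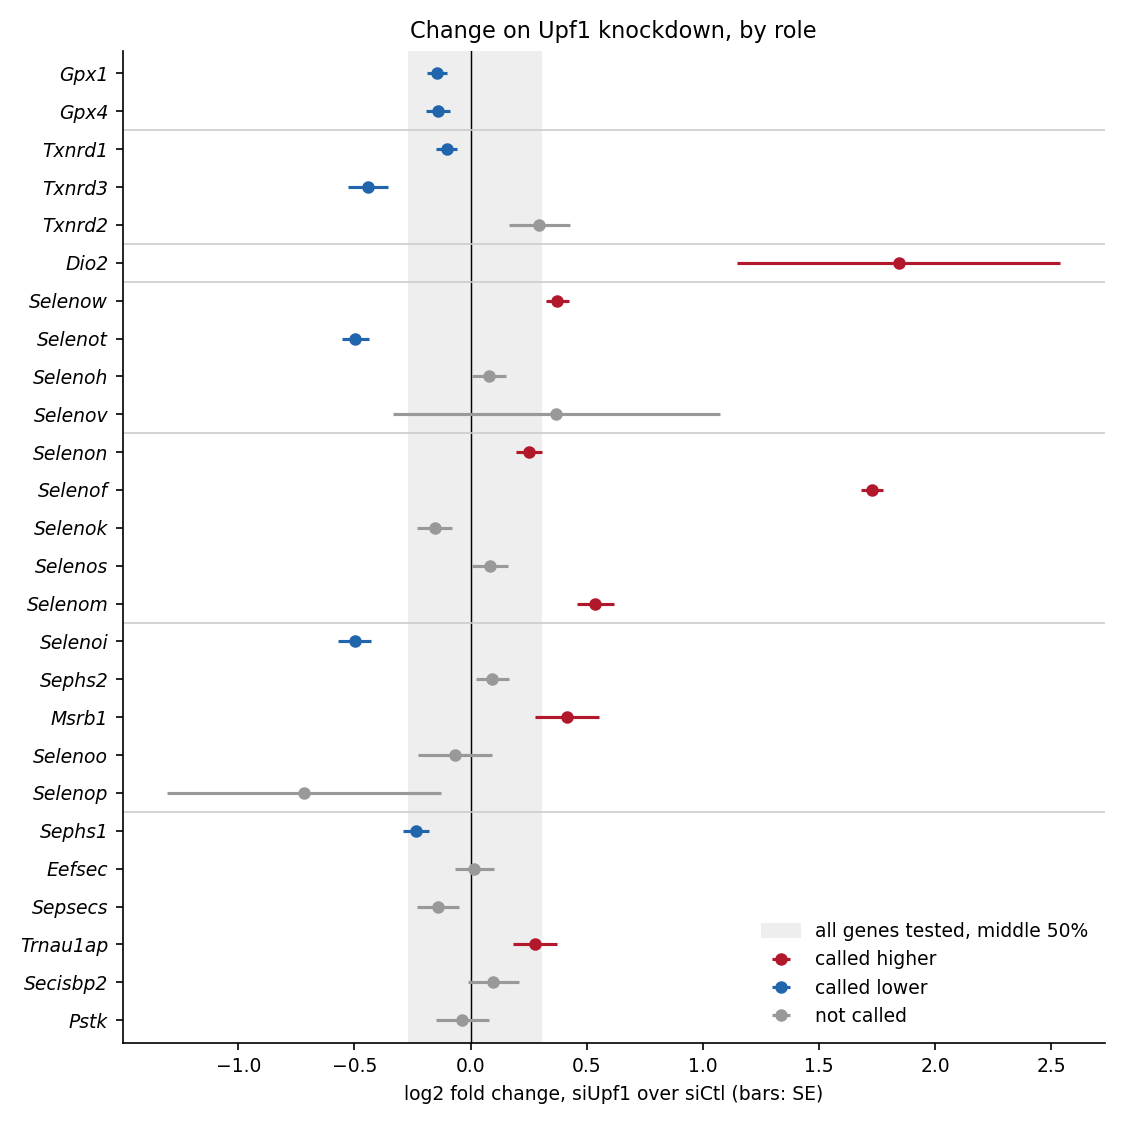
Log2 fold change of siUpf1 over siCtl for the 26 members tested, ordered by role, with bars for the SE of DESeq2, red for called higher, blue for called lower and grey for neither. The shaded band is the middle 50% of all genes tested, from -0.26 to 0.30. Selenof and Dio2 lie far to the right of the band, and the bar of Dio2 is the wider.

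The small selenoproteins with a thioredoxin-like fold moved in opposite directions. Selenow, a small redox protein abundant in muscle and brain, had 4341.8 and 4314.3 normalised counts in siCtl and 5441.2, 5857.4 and 5528.5 in siUpf1. Scaled to all annotated exons, it was the next most abundant member after Gpx1, at 233 RPKM in siCtl and 306 in siUpf1. Gpx4 had 130 in siCtl, but its annotated exons (1724 nt) exceed its representative transcript (959 nt), so this rank may depend on the length used. The lowest siUpf1 library was well above both siCtl libraries, and the log2 fold change was 0.37 (SE 0.050, adjusted p = 6.67e-13).

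Selenot, a membrane protein of the endoplasmic reticulum, had 3094.4 and 3180.3 normalised counts in siCtl and 2304.4, 2203.9 and 2163.5 in siUpf1. The groups did not overlap, and Selenot fell to 70.9% (log2 fold change -0.50, SE 0.058, adjusted p = 1.03e-16). Selenoh, a nuclear protein, overlapped between groups at 1460.2 and 1653.8 in siCtl and 1581.3, 1686.8 and 1674.1 in siUpf1 (log2 fold change 0.08, 95% interval -0.06 to 0.22, adjusted p = 0.408). Selenov, known from testis, had 8 to 16 reads in every library and its groups overlapped (log2 fold change 0.37, SE 0.70, adjusted p = 0.716). Gpx1 and Selenow are both known for mRNAs that fall when selenium is short, and here Gpx1 fell and Selenow rose.

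A further 5 selenoproteins of the endoplasmic reticulum were grouped together (Selenof, Selenom, Selenon, Selenok and Selenos), apart from Selenot, which fell and is described above by its fold. Of these 5, 3 were called higher and none lower, with a median log2 fold change of 0.25. Of all genes with a mean of 200 or more, 28.8% were called higher and 30.8% lower. The group is small, and whether it differs from other genes was not tested. Selenof, which binds the folding sensor of glycoproteins, UGGT, rose most. It lies on the plus strand of chromosome 3 (144570304 to 144597680). Its normalised counts were 2026.2 and 2013.3 in siCtl and 6789.4, 6640.6 and 6637.4 in siUpf1, that is 13.8 RPKM against 46.2. The libraries of each group lay within a few percent of each other, and the fold change was 3.31 (log2 fold change 1.73, SE 0.049, adjusted p = 7.84e-267). Only 84 of the 15191 genes tested had a higher log2 fold change. It was between 1.70 and 1.84 under all 13 alternatives and was called in each that gave an adjusted p.

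Selenom, a thioredoxin-fold protein of the same compartment that is abundant in brain, had 893.1 and 895.3 normalised counts in siCtl and 1243.3, 1342.9 and 1310.4 in siUpf1. The groups were well apart, and the log2 fold change was 0.54 (SE 0.078, adjusted p = 6.47e-11). Selenon, a calcium-sensing membrane protein whose loss causes a myopathy, had 2609.1 and 2508.6 in siCtl and 3134.1, 3083.7 and 2921.1 in siUpf1. Each siUpf1 library was above both siCtl libraries, and the log2 fold change was 0.25 (SE 0.058, adjusted p = 5.37e-05).

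The other genes of this group, both partners of the machinery that disposes of misfolded proteins, were not called. Selenok had 1208.6 and 1211.4 normalised counts in siCtl and 1091.3, 1119.5 and 1054.5 in siUpf1, so that all siUpf1 libraries were lower (log2 fold change -0.15, 95% interval -0.30 to -0.01, adjusted p = 0.0867). With edgeR it was called lower (adjusted p = 0.0257). Selenos overlapped, with 1146.8 and 1098.2 in siCtl and 1194.4, 1242.5 and 1133.0 in siUpf1 (log2 fold change 0.08, 95% interval -0.07 to 0.24, adjusted p = 0.418).

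Among the remaining selenoproteins, Selenoi, an ethanolamine phosphotransferase of phospholipid synthesis, had 2067.1 and 1920.8 normalised counts in siCtl and 1380.3, 1366.8 and 1482.4 in siUpf1. All siUpf1 libraries were far below both siCtl libraries, and Selenoi fell to 70.7% (log2 fold change -0.50, SE 0.070, adjusted p = 1.19e-11). Msrb1, which repairs oxidised methionine, had 272.5 and 258.5 in siCtl and 371.8, 365.2 and 325.4 in siUpf1. The groups did not overlap, and the log2 fold change was 0.41 (SE 0.138, adjusted p = 0.00756). That call was lost without siCtl replicate 1 (adjusted p = 0.0582), without siCtl replicate 3 (0.132) and without siUpf1 replicate 1 (0.0616).

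Selenop, the plasma carrier of selenium made mostly by liver, was rare in these cells, with 23 and 17 reads in siCtl and 13, 10 and 14 in siUpf1. Its libraries did not overlap, but the error was large (log2 fold change -0.72, SE 0.59, 95% interval -1.87 to 0.44, adjusted p = 0.343). Selenoo, a mitochondrial pseudokinase that transfers AMP, overlapped at 219.8 to 255.8 in siCtl and 215.7 to 235.7 in siUpf1 (log2 fold change -0.07, 95% interval -0.38 to 0.24, adjusted p = 0.769). Sephs2, the selenophosphate synthetase, is itself a selenoprotein and overlapped between groups at 1392.1 to 1518.0 in siCtl and 1505.7 to 1590.2 in siUpf1 (log2 fold change 0.09, 95% interval -0.05 to 0.23, adjusted p = 0.299).

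All 6 machinery genes were expressed and tested, and 1 was called higher and 1 lower (16.7% each, beside 22.0% and 22.9% of all genes tested and 28.8% and 30.8% at a mean of 200 or more). Trnau1ap, which binds the selenocysteine tRNA, had 671.9 and 716.1 normalised counts in siCtl and 814.7, 907.4 and 805.8 in siUpf1. The groups did not overlap, and the log2 fold change was 0.28 (SE 0.094, adjusted p = 0.00936), a call lost without siCtl replicate 1 (adjusted p = 0.176) or siUpf1 replicate 2 (0.0856). Sephs1, a relative of Sephs2 that has no selenocysteine, had 2962.3 and 2920.9 in siCtl and 2488.5, 2418.5 and 2582.4 in siUpf1. All siUpf1 libraries were lower, and the log2 fold change was -0.24 (SE 0.057, adjusted p = 0.000133).

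The remaining machinery genes, Secisbp2, Eefsec, Pstk and Sepsecs, were not called. Secisbp2, the SECIS-binding protein, overlapped at 529.3 to 552.4 normalised counts in siCtl and 520.3 to 613.3 in siUpf1 (log2 fold change 0.10, 95% interval -0.12 to 0.31, adjusted p = 0.508). Eefsec, the elongation factor, overlapped at 877.4 to 894.4 and 869.8 to 927.5 (log2 fold change 0.02, 95% interval -0.15 to 0.18, adjusted p = 0.900). Pstk, the kinase that prepares the tRNA-bound serine, had a log2 fold change of -0.04 (95% interval -0.26 to 0.19, adjusted p = 0.835). Sepsecs, the enzyme that then forms selenocysteine, had 827.1 and 801.9 in siCtl and 756.9, 705.3 and 749.7 in siUpf1, with no overlap (log2 fold change -0.14, 95% interval -0.32 to 0.04, adjusted p = 0.203).

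The position of the UGA codon was then set beside these changes. In 13 of the 24 genes the first selenocysteine codon of the representative transcript lay more than 50 nt upstream of the last junction, in 9 it did not, and Dio3 and Sephs2 have a single exon. Of the 13, 10 were tested, with 4 called higher (Selenof, Selenom, Selenow and Selenon), 3 lower (Selenot, Gpx1 and Gpx4) and 3 neither, and a median log2 fold change of 0.17. Of the 9, all were tested, with 2 higher (Dio2 and Msrb1), 3 lower (Txnrd1, Txnrd3 and Selenoi) and 4 neither, and a median of -0.07. Both sides thus held genes that rose and genes that fell, and no test was made of this difference. The shares called higher and lower were 40% and 30% on the upstream side and 22.2% and 33.3% on the other. Over all genes tested they were 22.0% and 22.9%, and at a mean of 200 or more 28.8% and 30.8%. Both sides held genes under that mean (Selenov and Selenop upstream, Dio2 on the other). With 10 and 9 genes, these shares are a description only.

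Whether the distance ordered the changes on the upstream side was not tested. Selenof, with the largest rise on the upstream side, had its codon 78 nt before the last junction, the shortest distance on that side. Selenot, with the longest at 470 nt, fell, as did Gpx4 at 342 nt and Gpx1 at 105 nt. The distances of Selenom, Selenon and Selenow, which rose, were 135, 216 and 243 nt. Those not called were Selenoh at 136 nt (log2 fold change 0.08), Selenov at 281 nt (0.37) and Selenop at 357 nt (-0.72). The annotation also held isoforms on the other side of 50 nt for Selenof (28 nt), Msrb1 (66 nt), Txnrd2 (83 nt) and Selenop (26 nt), and counts per gene do not tell isoforms apart. Selenop has 10 UGA codons in its frame, the most of any member.

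**Figure D3:**
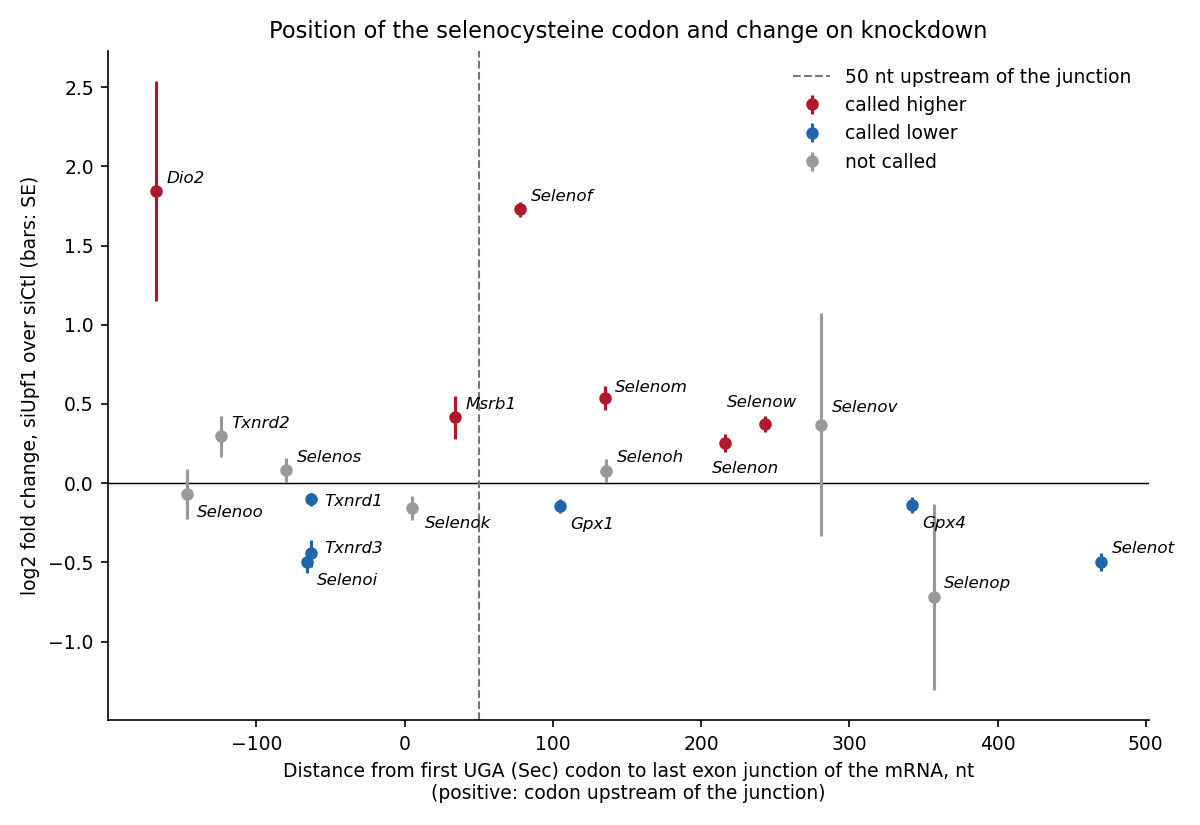
Log2 fold change (bars, SE) of the 19 tested selenoprotein genes with more than 1 exon, against the distance in nt from the first selenocysteine UGA to the last exon junction, positive when the codon lies upstream. The dashed line is at 50 nt. Genes called higher (red) and lower (blue) stand on both sides of it, and Selenof stands at 78 nt.

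The base after a UGA is known to affect how well it works as a stop. Of 10 tested genes with G after the UGA, 2 were called higher (Selenow and Selenon) and 5 lower, with a median log2 fold change of -0.12. Of 4 with A, 2 were higher (Selenof and Msrb1) and none lower, with a median of 0.39, and of 4 with C, 2 were higher (Dio2 and Selenom) and 1 lower (Selenoi), with a median of 0.31. The remaining genes, Selenoo and Selenop, had T and were not called. Over all genes tested, 22.0% were called higher and 22.9% lower, and at a mean of 200 or more 28.8% and 30.8%. The groups by base are small and include genes of the same family. They are given as a description only, and no difference between them was tested.

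Transcript length moved with the fold changes over all genes. The median log2 fold change rose from -0.10 in tested mRNAs of 255 to 1724 nt to 0.08 in those of 4922 nt or more, and 12 of the 26 tested members were in the first of these groups. When the trend with length and GC content was removed from each library, 3369 of all genes were called higher and 3795 lower. These numbers were 3341 and 3481 in the main fit. The median log2 fold change over all genes was -0.006 with the trend removed. Among selenoprotein genes, 9 were then called higher and 4 lower, with a median of 0.15. Whether they differed from other genes in this fit was not tested. Selenoh (adjusted p = 0.032), Selenos (0.0268) and Txnrd2 (0.0406) were then called higher, and the calls of Gpx1 (0.124) and Gpx4 (0.0685) were lost.

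The 3′ UTRs were searched in the sense direction for GCAGTAC and CAGTACA, heptamers that overlap in 6 bases and were chosen from earlier results of these data because mRNAs that hold them were higher in siUpf1. GCAGTAC occurred in 5.25% of the 12408 tested mRNAs with a 3′ UTR of at least 50 nt, whose median log2 fold change was 0.24 against -0.03 without it. CAGTACA occurred in 8.79%, with medians of 0.13 and -0.03. Among the members, Selenof held 1 GCAGTAC and, at another position, 1 CAGTACA. Txnrd1 and Selenoo held 1 GCAGTAC each, and Selenop and Dio1 held 1 CAGTACA each. The GCAGTAC matches are printed with 11 nt on either side and the heptamer in capitals, from the same annotation and build, since they mark what Selenof shares with members that did not rise.
Selenof (chr3:144597472-144597500, plus strand): actgaagatctGCAGTACgaatttaatac
Selenoo (chr15:89100128-89100156, plus strand): atactaccttaGCAGTACtaccctggcct
Txnrd1 (chr10:82897258-82897286, plus strand): tgtccccacctGCAGTACtgagtggcgtt
Selenof rose, Txnrd1 fell and Selenoo was not called, so a match alone did not go with 1 direction among these members.

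The same 3′ UTRs were searched for the 7-mers complementary to the seed (bases 2 to 8) of each strand of the Upf1 siRNA, whose letters are not printed here. A match to the sense strand's seed occurred in 10% of the tested mRNAs, with a median log2 fold change of -0.11 against -0.01 without it, and 1 match each was found in Selenot and Selenoi, which fell. A match to the antisense strand's seed occurred in 7.83%, with medians of 0.00 and -0.02, and Selenof, which rose, held 2. No other member held either. The part these matches had in the changes was not tested.

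Genes that assist the pathway were mostly lower or not called. Of 14 accessory genes, 13 were tested, with none called higher, 7 called lower (53.8%, beside 22.9% of all genes tested and 30.8% of those with a mean of at least 200) and 6 neither. Their median log2 fold change was -0.18, and whether this differs from other genes was not tested. The largest falls were those of Sars, the synthetase that charges the selenocysteine tRNA with serine (-0.54, SE 0.041, DESeq2 adjusted p = 7.78e-37), Nufip1, an assembly factor of RNA-protein particles (-0.46, SE 0.092, adjusted p = 2.83e-06), Rpl30, a ribosomal protein that also binds SECIS elements (-0.40, SE 0.054, adjusted p = 8.12e-13), and Alkbh8, which modifies the wobble base of the tRNA (-0.38, SE 0.091, adjusted p = 0.000122). Scly, Trit1 and Klhdc3 were also called lower, with log2 fold changes of -0.26, -0.24 and -0.18.

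Relatives and partners of selenoproteins that lack selenocysteine, here called the cysteine-based list, were compared in the same way. Of 20 such genes, 16 were tested, with 3 called higher (18.8%), 7 lower (43.8%) and 6 neither, and a median of -0.05. Over all genes tested the shares were 22.0% and 22.9%, and at a mean of 200 or more 28.8% and 30.8%. Whether the list differs from other genes was not tested. The largest falls were in peroxide-reducing peroxiredoxins and thioredoxin: Prdx5 from a mean of 1213 to 438.8 normalised counts (log2 fold change -1.47, SE 0.097, adjusted p = 1.9e-50), Prdx3 from 3071 to 1644 (-0.90, SE 0.063, adjusted p = 5.72e-45), Txn1 from 6211 to 3814 (-0.70, SE 0.048, adjusted p = 2.46e-47) and Prdx1 from 9094 to 7225 (-0.33, SE 0.043, adjusted p = 1.57e-13). Those called higher were Glrx (0.65), Msra (0.48), which repairs the other form of oxidised methionine than Msrb1 does, and Txn2 (0.23), the mitochondrial thioredoxin.

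**Figure D4:**
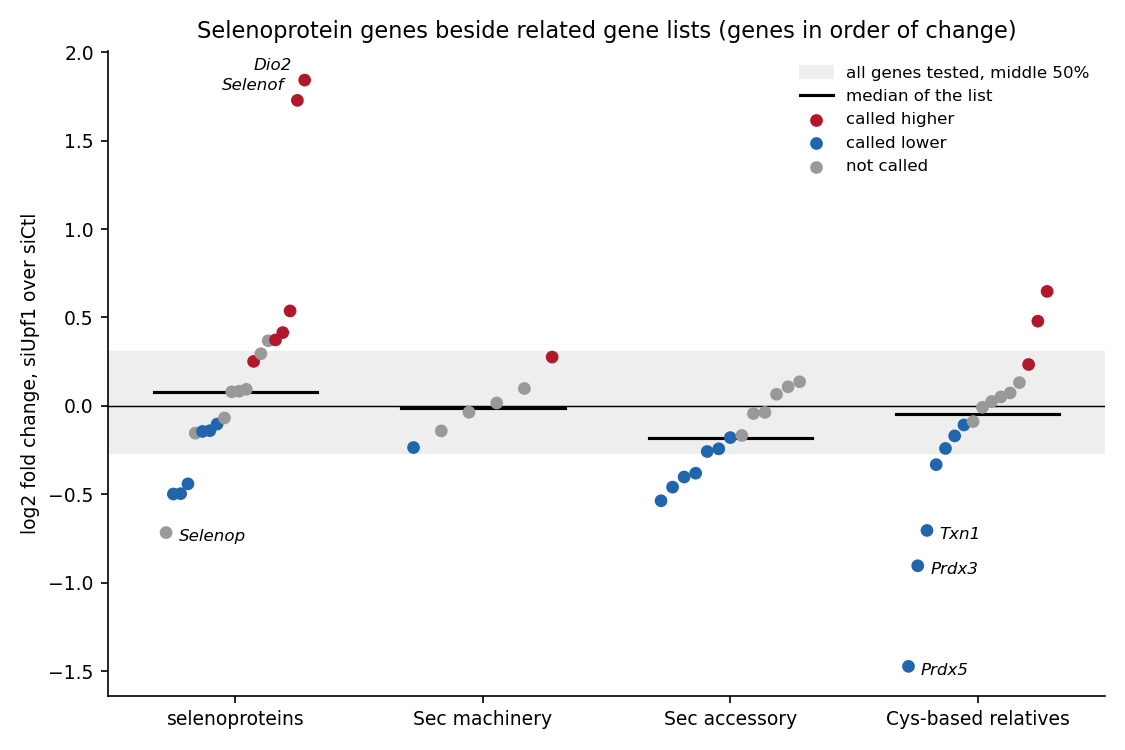
Log2 fold change of each tested selenoprotein, machinery, accessory and cysteine-based gene, in order within its list, with red for called higher, blue for called lower and grey for neither, a black line at the median of the list and a band for the middle 50% of all genes tested. Selenof and Dio2 lie above every other gene shown, and Prdx5 lies lowest.

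Under 13 alternative settings no member called in either direction reversed. Selenof, Selenom and Selenow stayed called higher, and Selenot, Selenoi and Txnrd3 stayed called lower, in every setting that gave an adjusted p. The other 8 calls among the members were lost in at least 1 setting.

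**Figure D5:**
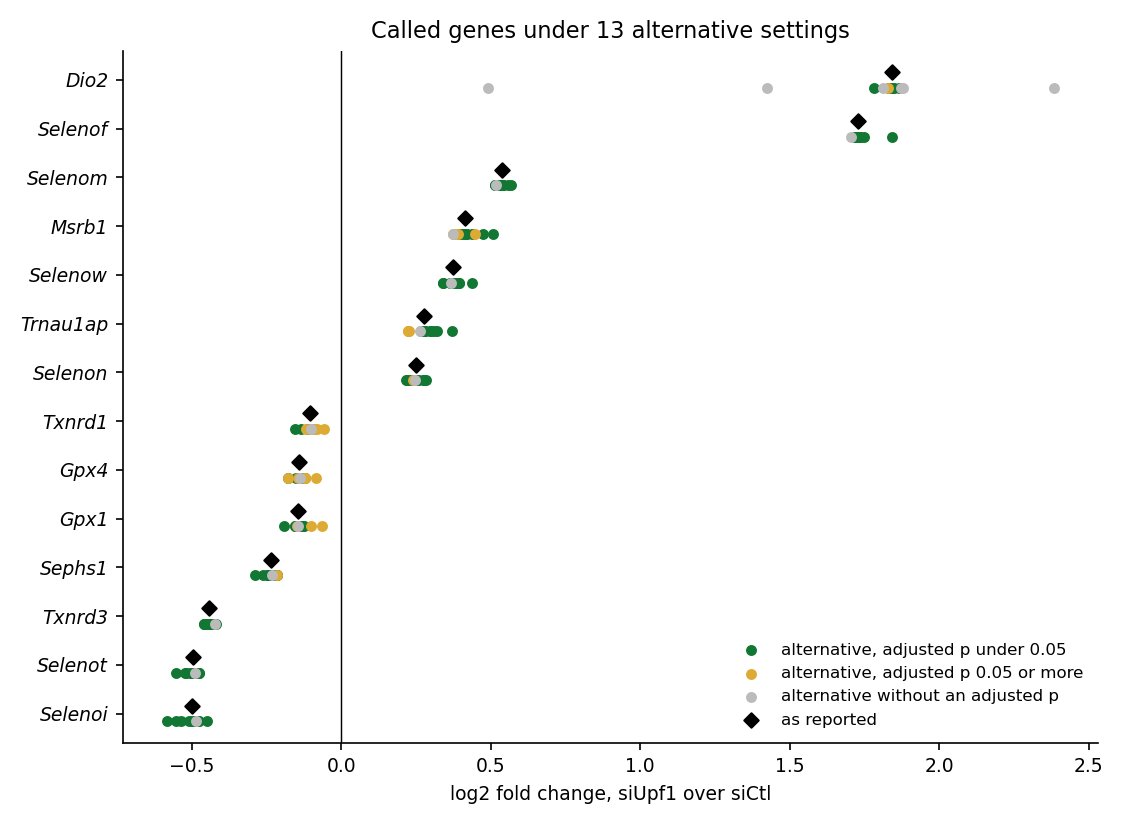
Log2 fold change of the 14 called members as reported (black diamonds) and under each of 13 alternative settings, in green where the adjusted p was under 0.05, yellow where it was not and grey where none was given. The values of Dio2 spread from 0.49 to 2.38, and those of the other genes lie close to the reported value and on the same side of 0.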

How the data were processed

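The authors deposited raw read counts per gene, neither normalised nor pooled. Per the study's methods and the submitters' processing notes, libraries were stranded and made from polyadenylated RNA, reads were mapped to GRCm38.p6 with STAR (2.7.0f), and those on exons of the matching strand were counted with featureCounts (Subread 1.6.4). No member shares exons with another gene on its own strand. Reads shared with processed pseudogenes may be lost, which makes genes with such copies, as for several selenoproteins, less certain.

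Groups came from the sample labels. All 55573 genes entered the Wald test of DESeq2 (1.42.0, R 4.3.3) on group alone, with its default size factors and independent filtering. Genes were called at a Benjamini-Hochberg adjusted p under 0.05 over all genes tested, and every adjusted p given is from DESeq2 unless edgeR is named. Normalised counts are counts divided by size factors. The smallest exact permutation p for 2 against 3 libraries is 0.1, so none was computed. RPKM used the union of exons. Transcripts, 3′ UTRs and selenocysteine codons came from GENCODE M21 (GRCm38), not the annotation used for counting, with 1 representative transcript per gene. It held 99.7% of the gene identifiers.

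The 30 members, the accessory and cysteine-based lists and the heptamers were chosen with earlier results of these data known. All members are named, and of the other lists up to 4 called genes at each end, to which Scly, Trit1 and Klhdc3 were added after their values were seen. Alternatives were edgeR (4.0.16) quasi-likelihood, TMM and total-count scaling, a minimum of 10 counts in 2 libraries, no independent filtering, shrunken fold changes, a replicate block, removal of trends with length and GC, and leaving out each library. The fitting code was tested on simulated data. A marker gene of the neuronal list is not reported here. Counting limits do not cover amplification error, since duplicates cannot be recognised in counts.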

Additional observations from a re-analysis of the deposited data

How the results depend on the processing

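The control spread rests on only 2 libraries, and members with few reads (Dio2, Selenop, Selenov, Gpx3 and Dio1) have wide errors. Upf1 stayed between -1.18 and -1.07, and the median of selenoprotein genes between 0.03 and 0.15. In the fit with a replicate block, 3919 genes were called in place of 6822. That fit called 3 selenoprotein genes higher (Selenof, Selenom and Selenow), 3 lower (Selenot, Selenoi and Txnrd3) and 0 machinery genes in either direction. There is no siCtl replicate 2, so in that fit siUpf1 replicate 2 could not inform the comparison of the groups. The log2 fold change of Upf1 was -1.11 both there and without siUpf1 replicate 2. Same-numbered libraries did not deviate together (correlations -0.12 for number 1 and -0.13 for number 3, over 9904 genes), so the numbers were not taken as pairs. With only 2 siCtl libraries, their deviations from the siCtl mean are exact opposites, so these correlations are not separate checks. On leaving out 1 library, machinery genes called higher were 0 to 1 (0 without siCtl replicate 1 or siUpf1 replicate 2), and genes called overall were 4767 to 6059. Over the 28 members with a read and the alternatives, 316 values kept their side of the threshold or, with no test, moved by less than the spread between replicates, 28 lost a call, 7 gained one and 9 without a usable test or with shrinkage moved. Some members that were not called changed sign (Dio1, Selenoh, Selenoo, Pstk and Eefsec). Scaling moved the median over all genes by under 0.1. Where a call was lost other than by fewer libraries, the cause was not tested.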
